A study of Homo sapiens with 6 samples.

Results

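Ribosome footprints were examined on the mitochondrial solute carriers, the SLC25 family, in human K562 chronic myelogenous leukemia cells with and without N6AMT1. Members were chosen by symbol alone, as every SLC25A gene except SLC25A37 and SLC25A38, plus the related outer membrane proteins MTCH1 and MTCH2. The rule named 48 genes, of which 47 had a row in the footprint table of 19330 transcripts. MTCH1 was not analysed here. Enough counts for a test were present for 28 of the 47, among 9202 genes tested in all.

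The data were ribosome profiles (Ribo-Seq), in which short stretches of mRNA shielded by ribosomes are sequenced, and their number on a coding sequence (CDS) measures how densely ribosomes occupied it. K562 cells, which show erythroid traits, were transduced with the lentiviral CRISPR/Cas9 vector pLentiCRISPRv2 carrying either an sgRNA against N6AMT1 (sgN6AMT1, 3 libraries) or control sgRNAs labelled OR11A1 and OR2M49 (sgCtrl, 3 libraries). Both groups were thus infected, puromycin selected for 48 h, and analysed 10 days after infection. The study describes its replicates as separate lentiviral transductions, no single clone is described, and which control guide each sgCtrl library carried is not stated. N6AMT1 is a methyltransferase that modifies eRF1, the factor that reads stop codons. Footprints follow mRNA abundance as well as translation, and RNA sequencing was not analysed here. In bulk lysates, a change in every cell and a larger change in some of the cells cannot be told apart.

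The inner mitochondrial membrane is impermeable to most metabolites, and SLC25 proteins are the carriers that move them across. A typical member is built of 3 homologous repeats, each holding a short signature, and exchanges substrates by opening alternately to either side of the membrane. The carriers are encoded in the nucleus, made on cytosolic ribosomes and imported by TOM and TIM22 complexes with the help of small TIM chaperones. A few members sit elsewhere, such as SLC25A17 in peroxisomes and MTCH2 and SLC25A46 in the mitochondrial outer membrane.

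The signature was found in most members from sequence alone. It was searched as proline, any residue, aspartate or glutamate, any 2 residues, then lysine or arginine, in the translated CDS of the listed transcripts (GENCODE release 44, GRCh38). At least 1 copy was present in 41 of the 45 members with a matched transcript (91.1%), against 30.2% of 17438 other listed genes. At least 3 copies were present in 27 members (60.0%), against 2.53% of the other genes. No copy was found in MTCH2, SLC25A46, SLC25A52 and SLC25A53. The first copy in the ADP/ATP carriers is shown to illustrate how alike these paralogs are at the mRNA level. It starts at residue 28 in each, and the capitals mark bases at which the 3 sequences are not all the same:
SLC25A4 (chr4:185143454-185143471, plus strand): ccCatcgagAgggtcaaA
SLC25A5 (chrX:119468597-119468614, plus strand): ccCatcgagCgggtcaaG
SLC25A6 (chrX:1391911-1391928, minus strand): ccGatcgagCgggtcaaG

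SLC25A5 and SLC25A6 were identical at 91.9% of 298 aligned residues but at 78.8% of CDS bases. Their CDSs shared 4 overlapping windows of 26 bases, the shortest footprint considered here, within a run of 29 bases. SLC25A4 shared no such window with either. Footprints on the ADP/ATP carriers could therefore be assigned to 1 paralog by exact match over nearly the whole CDS. The same held for SLC25A12 and SLC25A13, which shared 4 such windows, also within a run of 29 bases. It also held for SLC25A39 and SLC25A40, which shared none and were 53.8% identical in protein. The exception among the carriers tested was SLC25A10, the dicarboxylate carrier, since 89.8% of its 26-base stretches also occur in the listed transcript RP13-1032I1.10, so its value is uncertain. In SLC25A14, 2.31% of the 26-base stretches occur in other listed transcripts, 812 of them. This comparison covered only listed transcripts that could be matched.

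Because eRF1 reads the stop codon, the last 9 coding bases and the stop codon, in capitals, are shown for the 10 members that passed the test described below, the first 3 of which were higher and the others lower in sgN6AMT1 (GRCh38):
SLC25A14 (chrX:130372939-130372950, plus strand): cttcaaatcTAA
SLC25A36 (chr3:140976442-140976453, plus strand): ctcaatggaTAG
SLC25A39 (chr17:44320001-44320012, minus strand): ctgggcggcTGA
SLC25A15 (chr13:40809656-40809667, plus strand): gaagcatacTGA
SLC25A22 (chr11:791915-791926, minus strand): ccccaggccTGA
SLC25A12 (chr2:171785274-171785285, minus strand): gccactcagTGA
SLC25A13 (chr7:96121191-96121202, minus strand): ggaggcccaTAG
SLC25A1 (chr22:19176130-19176141, minus strand): aagacggacTAA
MTCH2 (chr11:47618833-47618844, minus strand): atgttaattTGA
SLC25A5 (chrX:119471047-119471058, plus strand): aagtacacaTAA

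Each of the 3 stop codons ended 1 of the 3 members that rose. Of the 7 that fell, 4 ended in TGA, 2 in TAA and 1 in TAG. Among the 27 tested members with a CDS, TGA ended 48.1%, TAA 29.6% and TAG 22.2%, against 49.1%, 29.7% and 21.2% of 8589 tested genes. The carriers were thus close to all genes in stop codon use. Both directions of change were found with each stop codon, but among the members that rose this rests on 1 gene per stop codon. Whether the changes depend on the stop codon was not tested.

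Libraries held 2031944 to 2969736 counts in sgCtrl and 1821356 to 2277616 in sgN6AMT1. The deepest was sgCtrl replicate 2, and the next sgCtrl library held 2079966. Footprints are given as CPM, which are counts scaled by edgeR to the size of each library. N6AMT1 itself was at 12.6, 8.27 and 16.8 CPM in sgCtrl against 4.38, 3.89 and 4.34 CPM in sgN6AMT1. These rest on 25, 24 and 34 counts against 10, 9 and 8. The log2 fold change was -1.51 (SE 0.31), the direction that the labels imply. N6AMT1 met the count cutoff of the test in sgCtrl alone, so no p is given for it. Its listed transcript is annotated as a target of nonsense-mediated decay. Erythroid markers summed to between 27460 and 28940 CPM in sgCtrl and between 27940 and 28910 in sgN6AMT1, with 0 of 12 at 0. The groups did not overlap for 8 of the 12, beside 37.5% of all genes tested. HBE1, TAL1 and ALAS2 (43.9 to 53.1 CPM in sgCtrl, 148 to 168 CPM in sgN6AMT1) were higher in sgN6AMT1, and HBZ, GATA1 (300 to 323 CPM in sgCtrl, 239 to 270 CPM in sgN6AMT1), KLF1, TFRC and EPOR were lower. Of the other cell type markers, CD14, CD8A and MS4A1 were at 0 throughout, summed T cell markers (CD3D, CD3E and CD8A) lay between 27.6 and 39.0 CPM, and the fibroblast markers COL1A1 and COL1A2 summed to between 31.6 and 41.9 CPM. LYZ lay between 50.7 and 60.7 CPM in sgCtrl and between 98.8 and 109 CPM in sgN6AMT1. The part of these markers in the results was not tested.

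The carriers spanned a wide range of levels. Together they took 0.331%, 0.337% and 0.343% of all counts in sgCtrl, against 0.325%, 0.321% and 0.313% in sgN6AMT1. The shares in sgN6AMT1 all lay below those in sgCtrl, with no test made on this sum. SLC25A5 and the phosphate carrier SLC25A3 alone made up 56.6% ± 0.939 (SD, n = 3) of carrier footprints in sgCtrl, and 56.6% ± 1.20 (SD, n = 3) in sgN6AMT1. The 28 members tested held 99.1% of carrier counts in sgCtrl.

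**Figure D1:**
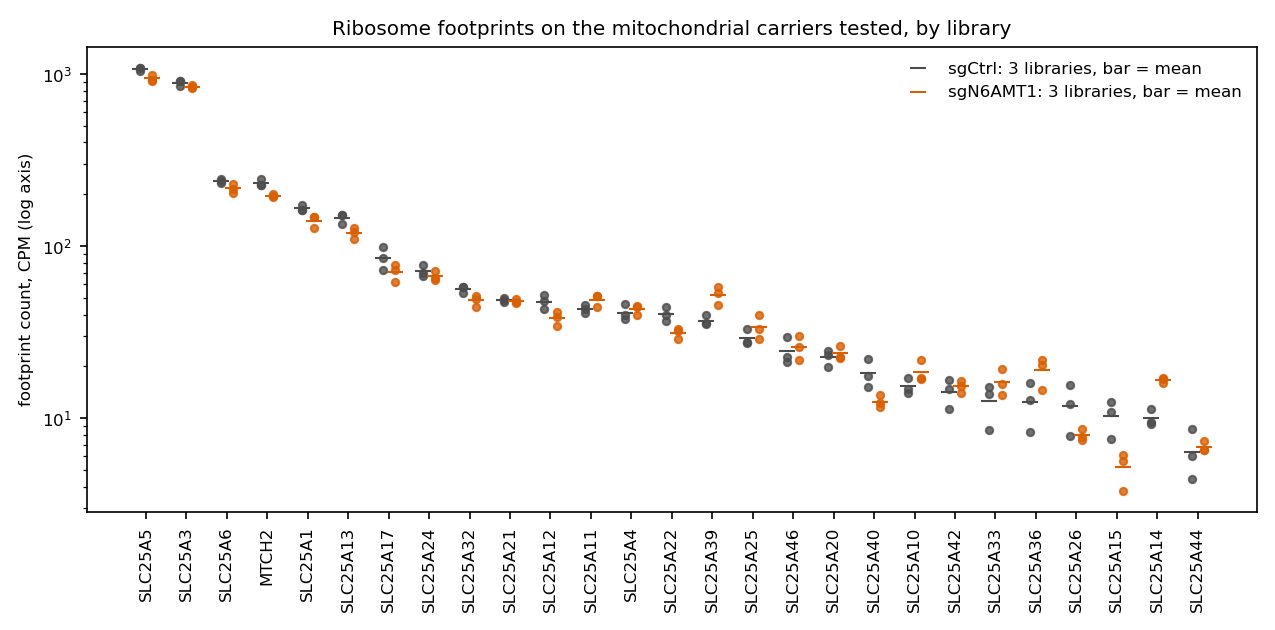
Footprint levels (CPM, log axis) of 27 of the 28 tested members in each of 6 libraries, ordered by the sgCtrl mean. Points are libraries and horizontal bars are means of 3 libraries per group. SLC25A5 and SLC25A3 lie at the top, with sgCtrl means of 1064 and 889 CPM, and SLC25A44 is the lowest in sgCtrl, at 6.36 CPM.

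Levels of different genes were compared per length, as CPM per kb of CDS in sgCtrl, for the 25 members that had a matched CDS and averaged 10 CPM or more over the 6 libraries. SLC25A5 led with 1186 ± 30.4 (SD, n = 3), followed by SLC25A3 with 816 ± 28.9 (SD, n = 3), and both stood clear of the next in order. SLC25A6 (266 ± 6.86, SD, n = 3) and MTCH2 (255 ± 11.1, SD, n = 3) came next and overlapped with each other. The citrate carrier SLC25A1 (177 ± 7.26, SD, n = 3) and the peroxisomal carrier SLC25A17 (92.6 ± 14.0, SD, n = 3) each stood clear of both neighbours. The aspartate/glutamate carrier SLC25A13 was at 72.0 ± 4.90 and its paralog SLC25A12 at 23.4 ± 2.05 (SD, n = 3). SLC25A14 was last at 9.48 ± 1.05 (SD, n = 3), 125-fold under SLC25A5. Library ranges of neighbours did not overlap in 10 of 24 adjacent pairs, so much of the middle of this order is not resolved by 3 libraries.

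Members with few or no footprints included forms known from other tissues. No count was found for 7 members, SLC25A2, SLC25A18, SLC25A27, SLC25A31, SLC25A34, SLC25A48 and SLC25A53, which allows up to 0.223 CPM over the 13431376 counts of all libraries (a limit of 3 counts, counting error only). SLC25A31 is the testis ADP/ATP carrier and SLC25A27 an uncoupling protein homolog of brain. A further 12 members (SLC25A16, SLC25A23, SLC25A28, SLC25A29, SLC25A30, SLC25A35, SLC25A41, SLC25A43, SLC25A45, SLC25A47, SLC25A51 and SLC25A52) had counts but too few for the main test. The iron carrier SLC25A28, for example, had 7 to 14 counts per library, and the transcripts listed for SLC25A23 and SLC25A41 are annotated as targets of nonsense-mediated decay. Of these, SLC25A29, a basic amino acid carrier, had counts of 8, 12 and 9 in sgCtrl against 4, 5 and 2 in sgN6AMT1, so the groups did not overlap. In an edgeR fit without the filter its log2 fold change was -1.28 (edgeR adjusted p = 0.0697), and DESeq2 gave an adjusted p of 0.268. It was singled out after its values were seen.

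The first comparison asked which carriers differed in footprints after N6AMT1 depletion. Of the 28 members tested, 10 passed the threshold, namely SLC25A14, SLC25A36 and SLC25A39, which rose, and SLC25A1, SLC25A5, SLC25A12, SLC25A13, SLC25A15, SLC25A22 and MTCH2, which fell. This was 35.7% of the members, beside 26.9% of all genes tested (edgeR, Benjamini-Hochberg, adjusted p below 0.05). The 3 that rose stand beside 12.9% of all genes that rose, and the 7 that fell beside 13.9% that fell. Log2 fold changes among the 10 ran from -0.99 to 0.73 and the smallest in size was 0.18, so most changes were modest. None of the 28 met the count cutoff in 1 group alone, and 26 of them met it in each of the 6 libraries.

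The median change of the family was small, with more members below 0 than above it. The median log2 fold change of the 28 members was -0.06, beside 0.01 over all genes tested. Of the 28 members 16 were below 0, beside 4512 of all 9202 genes tested. The median size of change was 0.23, beside 0.21 over all genes. The groups did not overlap in CPM for 12 members (42.9%), 2 higher and 10 lower in sgN6AMT1. Over all genes tested this was 37.5%, with 1690 higher and 1764 lower. With library totals in place of trimmed-mean (TMM) factors, 7 members passed, of which 57.1% were lower, beside 70.0% with TMM. Over all genes called, the lower share was 38.5% with library totals and 51.8% with TMM. Once trends on CDS length and GC content were removed, 76.9% of 13 called members were lower, beside 58.3% of all genes called. The median log2 fold change was then -0.13 for the members and -0.02 for all genes. With library totals these medians were -0.01 and 0.06.

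The tool made a large difference. The study's methods name DESeq2 for its own comparison, whereas edgeR was the main test here. DESeq2 called 2 of the 37 members to which it gave an adjusted p (5.41%), beside 12.3% of all 10780 genes. The 2 were SLC25A5 and MTCH2. For the other 8 members the DESeq2 adjusted p was between 0.0504 and 0.285. SLC25A5 and MTCH2 passed under all 16 alternatives run. SLC25A13 and SLC25A39 lost their calls under DESeq2 but under no other alternative.

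**Figure D2:**
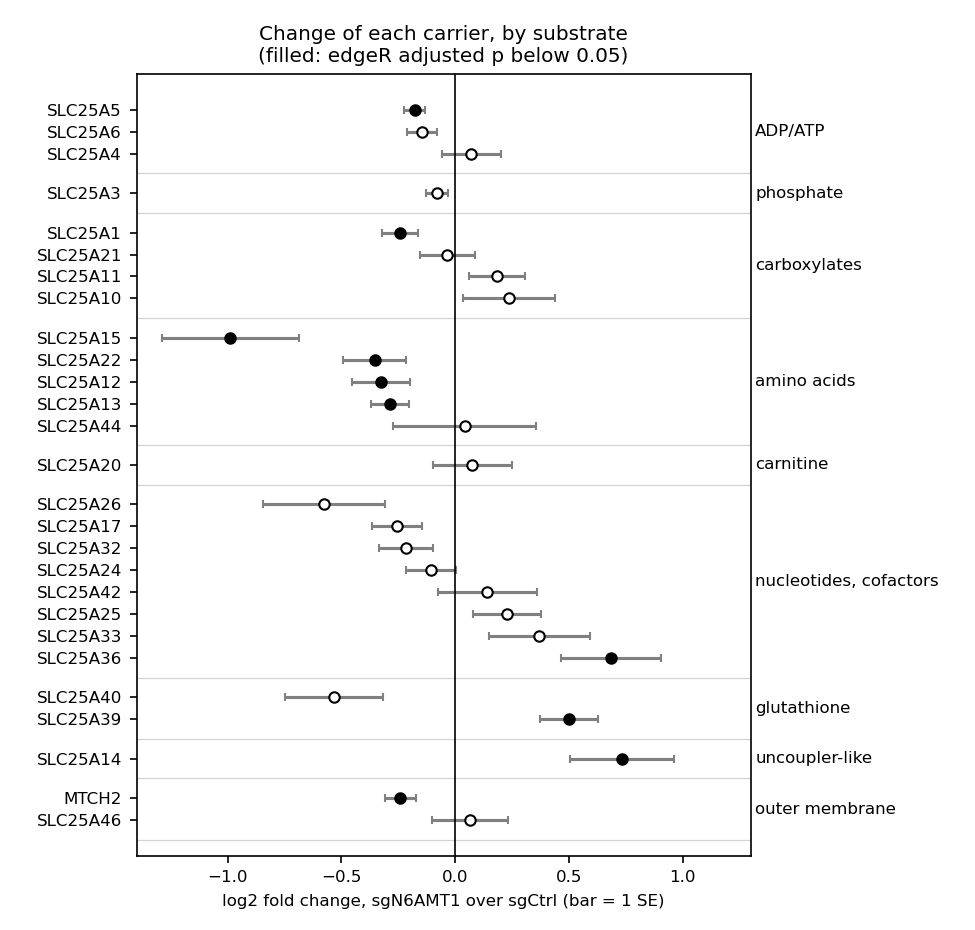
Log2 fold change (sgN6AMT1 over sgCtrl) of 27 of the 28 tested members with 1 SE from the edgeR fit, grouped by substrate. Filled points passed an edgeR adjusted p of 0.05. The 4 filled amino acid carriers lie below 0, and the glutathione carriers SLC25A39 and SLC25A40 lie on opposite sides of 0.

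The carriers of amino acids held 4 of the 10 calls. Of 8 genes in this group, 5 were tested and 4 fell (80.0%, beside 13.9% of all genes that fell), with a median log2 fold change of -0.32, beside a median of 0.01 over all genes tested. The substrate groups were drawn up with earlier results of these data known, so this share describes the group and is not a test of it. SLC25A12 and SLC25A13 exchange mitochondrial aspartate for glutamate and serve the malate-aspartate shuttle, which carries reducing equivalents into mitochondria. SLC25A22 imports glutamate, and SLC25A15 exchanges ornithine for citrulline in the urea cycle. The count of 4 was not stable. It was 0 with DESeq2, 2 with limma-voom, and between 1 and 4 when a library was left out, with 1 without sgCtrl replicate 2.

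Footprints on SLC25A13 were 152, 135 and 152 CPM in sgCtrl and 120, 127 and 110 CPM in sgN6AMT1. All sgN6AMT1 libraries lay below all sgCtrl libraries. The log2 fold change was -0.29 ± 0.08 (SE, edgeR adjusted p = 0.00542, between 0.00190 and 0.0504 over the alternatives). SLC25A12 was at 47.7, 51.7 and 43.4 CPM in sgCtrl and at 41.2, 38.9 and 34.2 CPM in sgN6AMT1. The groups again did not overlap, although the nearest libraries were close. Its log2 fold change was -0.32 ± 0.13 (SE, edgeR adjusted p = 0.0475), and the call was lost in 11 of 16 alternatives, 4 of them fits without sgCtrl replicate 1 or 2 or sgN6AMT1 replicate 2 or 3, with adjusted p between 0.0316 and 0.285. SLC25A13 held 75.4% ± 2.84 of the counts of the pair in sgCtrl and 75.7% ± 1.11 in sgN6AMT1 (SD, n = 3, exact permutation p = 0.8), a difference that lay between -1.22 and 1.56 percentage points when any library was left out.

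SLC25A22 was at 44.2, 39.7 and 36.5 CPM in sgCtrl and at 32.0, 32.8 and 28.8 CPM in sgN6AMT1, with no overlap. Its log2 fold change was -0.35 ± 0.14 (SE, edgeR adjusted p = 0.0475), and the call was lost in 12 of 16 alternatives, 5 of them fits without 1 library (any but sgCtrl replicate 3), with adjusted p between 0.00914 and 0.273. SLC25A18, the other glutamate carrier, had no counts. SLC25A15 had the largest change among the members tested, at 7.54, 12.4 and 10.9 CPM in sgCtrl and 6.14, 5.62 and 3.80 CPM in sgN6AMT1. These rest on 15, 36 and 22 counts against 14, 13 and 7. Its log2 fold change was -0.99 ± 0.30 (SE, edgeR adjusted p = 0.00815, a fold of 0.504), and the call was lost with DESeq2 (adjusted p = 0.137) and without sgCtrl replicate 2 (adjusted p = 0.101), within a range of 0.00276 to 0.137. The 2 CDSs of SLC25A15 and SLC25A2, a close paralog with no counts, were 87.6% identical. They shared 14 windows of 26 bases, in runs of at most 33 bases. The fifth tested member of the group, SLC25A44, a branched-chain amino acid carrier, had a log2 fold change of 0.04 (adjusted p = 0.943 by edgeR, SE 0.31), a value whose sign turned under 4 alternatives.

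The ADP/ATP carriers exchange ATP made in the matrix for cytosolic ADP and are the most abundant proteins of this kind in many cells. SLC25A5, the form known from proliferating cells, was at 1033, 1080 and 1080 CPM in sgCtrl and at 985, 927 and 910 CPM in sgN6AMT1. All 3 sgN6AMT1 libraries lay below all sgCtrl libraries. The log2 fold change was -0.18 ± 0.05 (SE, edgeR adjusted p = 0.00245, between 1.1e-09 and 0.0427 over the alternatives), a small change measured on at least 1676 counts in every library.

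SLC25A6 was at 239, 233 and 245 CPM in sgCtrl and at 203, 215 and 230 CPM in sgN6AMT1, with no overlap and a log2 fold change of -0.15 (adjusted p = 0.0941 by edgeR, SE 0.07). SLC25A4, the form of heart and muscle, was at 37.7, 39.7 and 45.9 CPM in sgCtrl and at 39.9, 44.9 and 44.5 CPM in sgN6AMT1. Its log2 fold change was 0.07 ± 0.13 (SE, edgeR adjusted p = 0.730), and it turned to -0.03 once trends on CDS length and GC content were removed. Neither SLC25A4 nor SLC25A6 passed the threshold in the main fit. SLC25A6 passed in 2 of 16 alternatives, namely without sgN6AMT1 replicate 3 and with the trends on CDS length and GC content removed. The share of SLC25A5 among the 3 was 79.2% ± 0.603 in sgCtrl and 78.4% ± 1.71 in sgN6AMT1 (SD, n = 3, exact permutation p = 0.5).

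SLC25A3 carries the phosphate needed for ATP synthesis, and also copper. It was at 852, 907 and 907 CPM in sgCtrl and at 865, 823 and 838 CPM in sgN6AMT1, and the groups overlapped. The log2 fold change was -0.08 ± 0.05 (SE, 95% interval -0.17 to 0.02, edgeR adjusted p = 0.238), and it passed only with the trends on CDS length and GC content removed (edgeR adjusted p = 0.00249, between 0.00249 and 0.753 over the alternatives).

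Among the 4 carriers of di- and tricarboxylates, SLC25A1 alone passed. SLC25A1 exports citrate, from which cytosolic acetyl-CoA for lipid synthesis is made. It was at 161, 162 and 173 CPM in sgCtrl and at 127, 147 and 147 CPM in sgN6AMT1, with all sgN6AMT1 libraries below all sgCtrl libraries. The log2 fold change was -0.24 ± 0.08 (SE, edgeR adjusted p = 0.0135, between 7.43e-05 and 0.142 over the alternatives). The call was lost with DESeq2, with total counts, without sgCtrl replicate 3 and without sgN6AMT1 replicate 1. The others, SLC25A10, the 2-oxoglutarate carrier SLC25A11 and the oxodicarboxylate carrier SLC25A21, had log2 fold changes between -0.03 and 0.24, with edgeR adjusted p of at least 0.286. SLC25A20, which brings acylcarnitines to the matrix for fatty acid oxidation, had a log2 fold change of 0.08 (adjusted p = 0.789 by edgeR, SE 0.17).

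The carriers of nucleotides and cofactors had 1 call among 9 tested of 14 members (11.1%, beside 26.9% of all genes). SLC25A36, which with SLC25A33 moves pyrimidine nucleotides into mitochondria, was at 16.1, 8.27 and 12.8 CPM in sgCtrl and at 21.9, 20.3 and 14.7 CPM in sgN6AMT1. The groups overlapped, since the lowest sgN6AMT1 library lay under the highest sgCtrl library. On the log2 scale the fold change was 0.69 ± 0.22 (SE, edgeR adjusted p = 0.0127, between 0.00226 and 0.227 over the alternatives), and the call was lost with DESeq2, without sgCtrl replicate 2, and without sgN6AMT1 replicate 1 or 2. It was 0.41 without sgCtrl replicate 2 and 0.91 without sgCtrl replicate 1.

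SLC25A33 was at 8.54, 13.8 and 15.3 CPM in sgCtrl and at 15.8, 19.4 and 13.6 CPM in sgN6AMT1, with a log2 fold change of 0.37 (adjusted p = 0.222 by edgeR, SE 0.22). SLC25A36 held 49.5% ± 14.3 of the counts of this pair in sgCtrl and 53.7% ± 3.85 in sgN6AMT1 (SD, n = 3, exact permutation p = 0.7). These counts are low, 17 to 50 per library and gene.

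The ATP-Mg/phosphate carriers set the adenine nucleotide pool of the matrix in response to calcium. SLC25A24 was at 66.8, 77.6 and 70.0 CPM in sgCtrl and at 63.6, 71.7 and 65.1 CPM in sgN6AMT1, with a log2 fold change of -0.11 (adjusted p = 0.524 by edgeR, SE 0.11). SLC25A25 was at 33.1, 27.2 and 27.6 CPM in sgCtrl and at 39.9, 32.8 and 28.8 CPM in sgN6AMT1, with a log2 fold change of 0.23 (adjusted p = 0.264 by edgeR, SE 0.15). The groups overlapped for both. SLC25A24 held 68.1% ± 3.80 of the counts of the 3 paralogs in sgCtrl and 65.0% ± 3.83 in sgN6AMT1 (SD, n = 3, exact permutation p = 0.5).

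None of the other tested carriers in this group passed in the main fit. SLC25A26, which imports S-adenosylmethionine, the methyl donor of methyltransferases, had a log2 fold change of -0.58 (adjusted p = 0.101 by edgeR, SE 0.27), on 16 to 35 counts per library. The groups overlapped, and its log2 fold change ran from -0.38 without sgCtrl replicate 1 to -0.77 without sgCtrl replicate 3, where it passed. SLC25A17, SLC25A32, a folate and flavin carrier, and SLC25A42, a coenzyme A carrier, lay between -0.25 and 0.14, with edgeR adjusted p of at least 0.0745. Of these, SLC25A17 passed in 3 of 16 alternatives, with the trends removed and without sgCtrl replicate 2 or sgN6AMT1 replicate 1. The NAD carriers SLC25A51 and SLC25A52 had at most 11 and 5 counts in any library.

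Of the glutathione carriers, SLC25A39 rose and SLC25A40 did not pass the threshold. Both are linked to the import of glutathione, the main thiol antioxidant, into the matrix. SLC25A39 was at 35.2, 35.5 and 39.9 CPM in sgCtrl and at 45.6, 57.5 and 53.2 CPM in sgN6AMT1, so that every sgN6AMT1 library exceeded every sgCtrl library. On the log2 scale the fold change was 0.50 ± 0.13 (SE, edgeR adjusted p = 0.00125, between 0.000321 and 0.0549 over the alternatives), a fold of 1.42.

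SLC25A40 was at 17.6, 15.2 and 22.2 CPM in sgCtrl and at 12.3, 11.7 and 13.6 CPM in sgN6AMT1, and the groups did not overlap. Its log2 fold change was -0.53 ± 0.22 (SE, edgeR adjusted p = 0.0569, between 0.0291 and 0.286 over the alternatives), so it did not pass. SLC25A39 held 66.7%, 70.1% and 64.3% of the counts of the pair in sgCtrl and 78.8%, 83.1% and 79.7% in sgN6AMT1, with means of 67.0% ± 2.91 and 80.5% ± 2.29 (SD, n = 3). The difference of 13.5 percentage points lay between 12.2 and 15.1 when any library was left out. The exact permutation p was 0.1, the smallest that 3 against 3 allows (adjusted p = 0.6 over 6 subfamilies), so this design cannot pass the threshold. Of the 6 paralog shares tested, this was the only one without overlap between the groups.

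**Figure D3:**
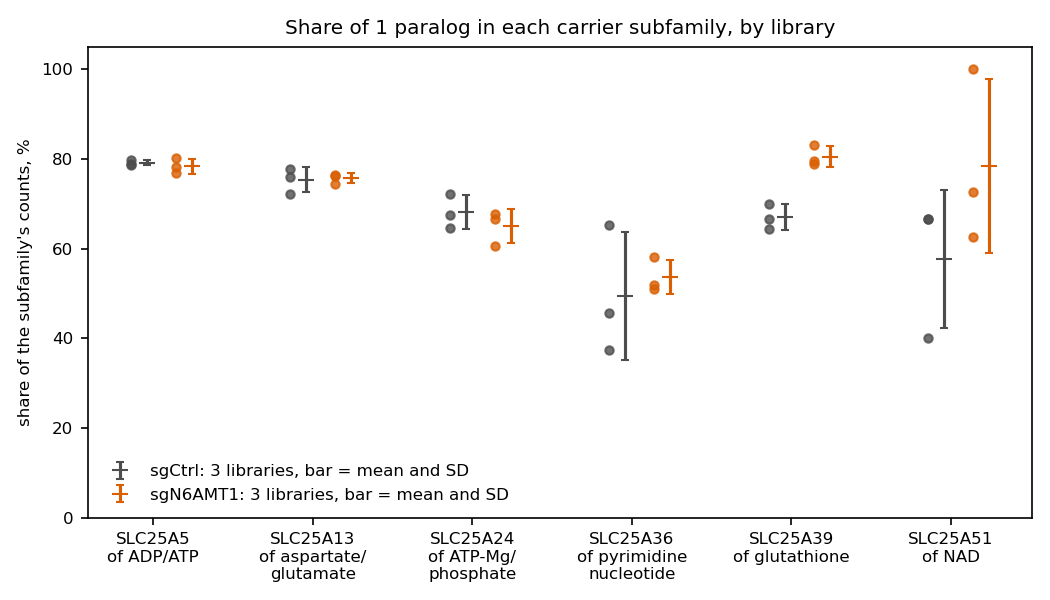
Share of the subfamily's counts on 1 paralog (percent), for 6 carrier subfamilies. Points are libraries, and bars give the mean and SD of 3 libraries per group. The share of SLC25A39 lies between 64.3% and 70.1% in sgCtrl and between 78.8% and 83.1% in sgN6AMT1, whereas the groups overlap in the other 5.

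SLC25A14, a homolog of the uncoupling proteins, rose. It was at 9.54, 9.31 and 11.3 CPM in sgCtrl and at 17.1, 16.0 and 16.8 CPM in sgN6AMT1, on 19, 27 and 23 counts against 39, 37 and 31. The groups did not overlap. On the log2 scale the fold change was 0.73 ± 0.23 (SE, edgeR adjusted p = 0.00984, a fold of 1.66), and the call was lost with DESeq2 (adjusted p = 0.143) and without sgCtrl replicate 2 (adjusted p = 0.0581), within a range of 0.00527 to 0.143. The share of its sequence that occurs in many other transcripts is given above, and the part of such reads in this change was not tested. Its nearest relatives SLC25A27 and SLC25A30 had 0 counts and 3 to 10 counts per library.

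In the outer membrane, MTCH2 fell. MTCH2 inserts alpha-helical proteins into this membrane and has a carrier-like fold. It was at 227, 227 and 244 CPM in sgCtrl and at 195, 200 and 194 CPM in sgN6AMT1, with a clear gap between the groups. On the log2 scale the fold change was -0.24 ± 0.07 (SE, edgeR adjusted p = 0.00374, between 3.64e-05 and 0.0339 over the alternatives). SLC25A46, which takes part in mitochondrial fusion and fission, had a log2 fold change of 0.07 (adjusted p = 0.815 by edgeR, SE 0.17), and its sign turned without sgCtrl replicate 1 or sgN6AMT1 replicate 1.

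Genes that work with the carriers were read in the same fit. The second list held 30 other mitochondrial transporters and channels, including the pyruvate carrier, the calcium uniporter, sideroflexins, voltage-dependent anion channels (VDACs) and the carriers SLC25A37 and SLC25A38. Of 25 tested, 6 passed (24.0%, beside 26.9% of all genes), 3 higher and 3 lower, with a median log2 fold change of -0.09. Among them, SFXN5 (0.73) and VDAC2 (0.14) rose, and the sideroflexin SFXN4 (-0.48), the ABC transporter ABCB10 (-0.28) and VDAC1 (-0.16) fell. SFXN5 lost its call in 6 of 15 alternatives, among them those without sgCtrl replicate 2 or 3 and without sgN6AMT1 replicate 2 or 3, and its log2 fold change was 0.46 without sgN6AMT1 replicate 3. VDAC2 lost its call in 6 of 16, among them those without sgCtrl replicate 1 or 2 and without sgN6AMT1 replicate 1, where its log2 fold change was 0.07. ABCB10 lost its call in 6 of 16, VDAC1 in 5 and SFXN4 in 2, in each case also without sgN6AMT1 replicate 2, and ABCB10 also without sgCtrl replicate 2 or 3 or sgN6AMT1 replicate 1, and VDAC1 without sgCtrl replicate 3. The count of 6 went down to 3 without sgCtrl replicate 2 or 3 and to 2 without sgN6AMT1 replicate 2.

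The third list held 16 genes for import of carrier proteins, all tested, and 6 passed (37.5%, beside 26.9% of all genes), 3 higher and 3 lower. The small TIM proteins TIMM9 and TIMM10 form 1 chaperone complex that escorts carriers across the intermembrane space, and they changed in opposite directions. TIMM10 was at 111 ± 5.29 CPM in sgCtrl and 61.7 ± 6.72 CPM in sgN6AMT1 (SD, n = 3), with a log2 fold change of -0.84 (adjusted p = 6.35e-11 by edgeR, SE 0.10). TIMM9 was at 25.3 ± 1.60 CPM in sgCtrl and 36.6 ± 6.38 CPM in sgN6AMT1 (SD, n = 3), with a log2 fold change of 0.56 (adjusted p = 0.00272 by edgeR, SE 0.15). Of the TOM complex, TOMM7 (0.38) and TOMM6 (0.20) rose, and the pore protein TOMM40 (-0.27) and the receptor TOMM20 (-0.18) fell. TIMM10, TOMM7 and TOMM40 passed in all 16 alternatives. TOMM6 lost its call only with the trends on CDS length and GC content removed, at a log2 fold change of 0.09 (edgeR adjusted p = 0.155, the highest over its alternatives, down to 0.000208). TOMM20 lost its call in 5 of 16, among them those without sgCtrl replicate 2 and without sgN6AMT1 replicate 2 or 3, and TIMM9 with DESeq2 and without sgN6AMT1 replicate 1.

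**Figure D4:**
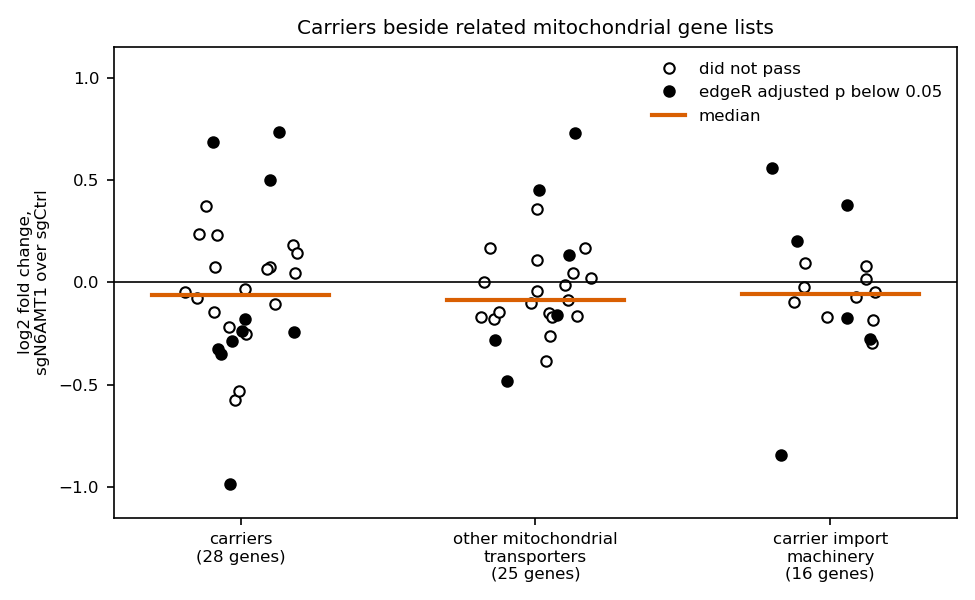
Log2 fold change (sgN6AMT1 over sgCtrl) of tested carriers, other mitochondrial transporters and genes of carrier import. Filled points passed an edgeR adjusted p of 0.05 and lines are medians, which lie between -0.09 and -0.06 in the 3 lists, with calls in both directions in each.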

How the data were processed

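The data were ribosome profiling libraries of K562 cells, 3 sgCtrl and 3 sgN6AMT1, were grouped by the labels. The deposited values are whole-number footprint counts per transcript. Per the study's methods, the authors trimmed adapters with cutadapt, mapped reads of footprint length to GRCh38 (Ensembl release 84) with HISAT2, removed rRNA and tRNA reads, and mapped the rest to 1 canonical transcript per gene with bowtie2. P-sites summed over the CDS and overlaps with a gene annotation are both described, and which of them the table holds is not stated. No molecular identifiers are described, so the limit given for members with no counts covers counting error only. SEs were derived from the log2 fold change and F statistic of the edgeR fit, and 95% intervals from these SEs by a normal approximation. Both include the spread between libraries.

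Genes were tested with edgeR 4.0.16 (R 4.3.3) by the quasi-likelihood F test, 2-sided, with TMM factors, filterByExpr (minimum count 10, which removed 10128 genes), Benjamini-Hochberg adjustment over 9202 genes and a threshold of 0.05. CPM are counts scaled to the TMM-adjusted size of each library. Paralog shares were compared by 2-sided exact permutation tests. Transcripts were matched without version to GENCODE release 44 (17687 matched), which gave CDSs for 45 members but not for SLC25A26 and SLC25A51. The tests were tested on simulated data. Alternatives were DESeq2 1.42.0, limma-voom (limma 3.58.1), other scaling factors, other filters, the replicate number as a block, each library left out, and, added after seeing the data, offsets that remove loess trends (span 0.5) with CDS length and with GC content.

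Members, roles and related lists were chosen with earlier results of these data known. Values in every library were given for members that passed and averaged 10 CPM or more, the ADP/ATP carriers, SLC25A3, tested members of the paralog subfamilies, and MTCH2, and other members were given by count and range, or with a value where a group's account needed it. From the related lists, up to 6 genes past the threshold were named in each. Values of some named genes are not reported here.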

Additional observations from a re-analysis of the deposited data

How the results depend on the processing

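Beside 10 members called (3 higher, 7 lower), DESeq2 called 2 (0 higher, 2 lower) and a minimum mean of 50 counts left 5 (1 higher, 4 lower). With total counts, 4 members were lower. The call counts of other alternatives lay within 1.5 times of these, except that leaving out 1 library gave 1 to 3 members higher (1 without sgCtrl replicate 2). DESeq2 called 1324 of all genes, beside 2473 with edgeR. Of the other transporters, DESeq2 called 1, removal of CDS length and GC trends gave 10, and leaving out 1 library gave 2 to 5, beside 6. No called member changed sign in any alternative run. Signs turned for members that did not pass. With the trends removed, log2 fold changes were -0.0345 for SLC25A4, -0.0192 for SLC25A20 and -0.0569 for SLC25A44. With total counts it was 0.0217 for SLC25A21. Over the fits that left out 1 library they ran from -0.005 to 0.127 for SLC25A20, from -0.0312 to 0.258 for SLC25A42, from -0.145 to 0.380 for SLC25A44 and from -0.0586 to 0.257 for SLC25A46. The cause was not tested, apart from the fewer genes that a stricter filter leaves. With the replicate block, 8 members (3 higher, 5 lower) and 2390 genes passed. Libraries of the same number did not deviate together (correlations -0.14 to 0.04), so the number was not taken as a pairing. Depth limits the members under about 10 CPM, of which several rest on fewer than 40 counts per library.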
